A study of Mus musculus with 9 samples.

Results

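The genes that write, copy, read and erase DNA methylation were described in the murine T15 lymphoma line. The 9 members were the DNA methyltransferase genes Dnmt1, Dnmt3a and Dnmt3b, the Uhrf1 gene, the demethylation genes Tet1, Tet2, Tet3 and Tdg, and the reader gene Mbd1. They were chosen by name for their function, and the rule holds no threshold on a measured value, although earlier results of these data were known. All 9 were found among the 35288 Ensembl genes listed, and all 9 passed the filter on low counts that left 13697 genes for testing.

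T15 is a Smarcb1-negative cell line from a peripheral T-cell lymphoma (PTCL) that arose in mice carrying Smarcb1 fl/fl and Cd4-Cre, in which Cre is driven in T cells. RNA-seq was performed on 3 control, 3 SAHA and 3 Smarcb1-RE libraries. SAHA (vorinostat), an inhibitor of histone deacetylases, was used at 1 µM for 72 h and was added again during that time. In T15 cells the authors report strong apoptosis at this concentration, with most cells dead. The share of dying cells in the sequenced cultures is not given, and its part in the SAHA differences was not tested. Smarcb1-RE cells carried a lentiviral, doxycycline (Dox)-inducible Smarcb1 cDNA, were selected with G418 and received Dox at 0.5 µg/µl for 72 h. All 3 groups derive from these Smarcb1-negative cells, so they share 1 cell line and its background. The labels mention a vehicle and a control plasmid but leave it unstated which was given to the 3 control cultures, so the effects of transduction, selection and Dox cannot be told apart from those of Smarcb1. Stable clones were established for re-expression, and the labels do not say whether the 3 Smarcb1-RE libraries are different clones. The replicates are described as biological, and p-values measure the spread between these libraries of a single line. Control replicate 1 stood apart from its group, with a chi-square per gene of 13.4 and 15.0 against the other control libraries, where all other pairs within a group gave 2.12 to 4.69. It was the lowest control library for Dnmt1, Uhrf1, Tet2 and Tet3. Leaving it out changed no call of these genes against control (Dnmt1 -0.21 in SAHA and -0.42 in Smarcb1-RE, Uhrf1 -0.49 and -0.78, Tet2 0.91 and 1.2, and Tet3 0.03, not called, and 0.60).

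Library totals were between 20900424 and 24941408 estimated counts. Smarcb1 itself had 2 to 8 counts in control, 3 to 13 in SAHA and 142 to 151 in Smarcb1-RE. Of 16 T-cell markers, 12 were tested, and their summed level was 4768 to 5147 CPM in control, 4868 to 4945 in SAHA and 4593 to 4662 in Smarcb1-RE, although Cd2, Cd5, Thy1 and Cd4 were at or near 0. Summed markers of myeloid cells (11 genes) were 2.16 to 2.71, 6.02 to 7.49 and 1.90 to 1.98 CPM in the same order, and those of B cells (6 genes) 1.02 to 1.31, 1.33 to 1.95 and 7.34 to 8.23 CPM. The myeloid sum rests on Cd68 (1.69, 6.75 and 1.65 CPM on average), while Itgam (0.434, 0.0291 and 0.101 CPM) and Lyz2 (0.112, 0 and 0.0284 CPM) were at or near 0 in both treatments. The B-cell sum rests on Ms4a1 (0.825, 0.768 and 3.51 CPM) and Pax5 (0.0982, 0.767 and 3.89 CPM). Mitochondrial genes took 3.02% to 3.53% of the counts in control, 3.37% to 3.76% in SAHA and 4.79% to 5.08% in Smarcb1-RE. The part of these differences in the results below was not tested. In bulk libraries, fewer cells of a kind and less RNA per cell cannot be told apart.

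DNA methylation is carried by cytosines of CpG dinucleotides. Dnmt3a and Dnmt3b set new marks, and Dnmt1 copies existing marks onto the daughter strand after replication, guided by Uhrf1, which binds hemimethylated CpG. Tet enzymes oxidize methylcytosine, the glycosylase Tdg removes the more oxidized products so that base excision repair can restore cytosine, and methyl-binding proteins such as Mbd1 link the mark to repression. In T-cell lymphoma, DNMT3A and TET2 are known for recurrent mutation. No DNA methylation was measured in these libraries, and the values below are RNA levels only.

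Levels are given as CPM, in which counts are divided by the TMM-scaled library size so that libraries of different depth can be compared, and differences as log2 fold changes with their SE. Genes were called at an adjusted p under 0.05 in edgeR's quasi-likelihood fit, with Benjamini-Hochberg adjustment over all 13697 genes. Every adjusted p below comes from this test.

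In SAHA, 2 of the 9 members rose (Dnmt3a and Tet2; 32.6% of all genes rose), 4 fell (Dnmt1, Dnmt3b, Uhrf1 and Tdg; 34.3%) and 3 were not called (Tet1, Tet3 and Mbd1). Against the background of all tested genes, of which 66.9% were called, the 6 called members are no more than a usual share. In Smarcb1-RE, 5 members rose (Dnmt3a, Tet1, Tet2, Tet3 and Mbd1) and 4 fell (Dnmt1, Dnmt3b, Uhrf1 and Tdg), so that all 9 were called, where 77.8% of all genes were called, 39.2% up and 38.6% down. Dnmt3a and Tet2 were thus up in both (19.2% of all genes), and Dnmt1, Dnmt3b, Uhrf1 and Tdg down in both (21.5%). With a change of at least 1.5-fold required as well, 2 members rose and 1 fell in SAHA, where 27.0% of all genes passed, 17.4% up and 9.61% down. In the same way, 4 rose and 2 fell in Smarcb1-RE, where 43.7% passed, 25.6% up. The libraries of 6 members in SAHA and of 9 in Smarcb1-RE did not overlap with control (68.7% and 79.5% of all genes). Both comparisons use the same 3 control libraries. The median log2 fold change of the members was -0.14 in SAHA and 0.16 in Smarcb1-RE, against 0.00 and 0.01 over all tested genes. The median size of the change, regardless of sign, was 0.42 and 0.66 for the members and 0.37 and 0.53 for all tested genes.

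**Figure D1:**
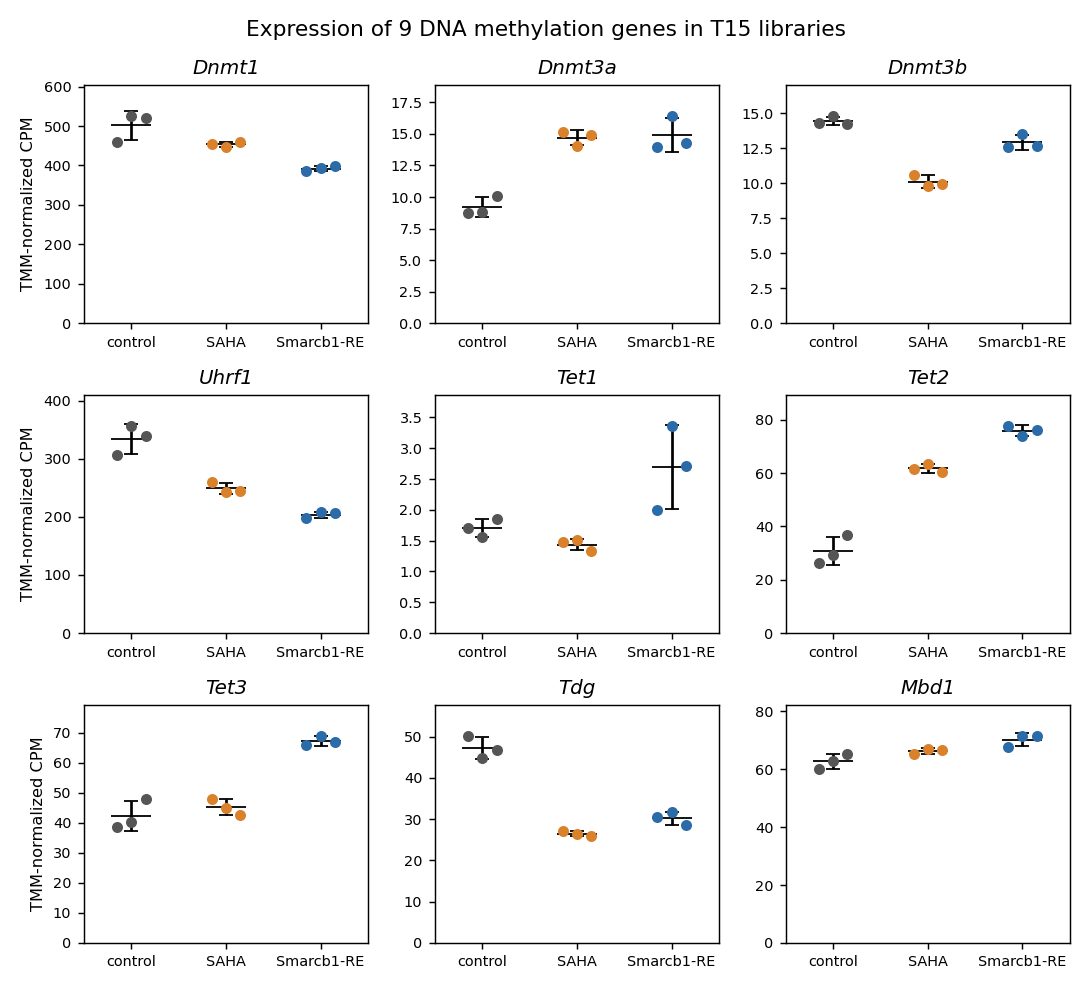
TMM-normalized CPM (linear axis from 0) of each member in the 3 control, 3 SAHA and 3 Smarcb1-RE libraries, with the horizontal line at the mean and bars of 1 SD. All control libraries lie below all treated libraries for Dnmt3a and Tet2 and above them for Dnmt3b, Uhrf1 and Tdg. For Dnmt1, Tet3 and Mbd1, only Smarcb1-RE is separate from control. For Tet1, SAHA lies below control and Smarcb1-RE above it.

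Among the writers, Dnmt1 (chromosome 9, 20907209 to 20959888, minus strand, GRCm38) was by far the most abundant methyltransferase transcript. Its level was 459, 525 and 520 CPM in the control libraries, 454, 447 and 461 CPM in SAHA and 385, 393 and 398 CPM in Smarcb1-RE. The Smarcb1-RE libraries lay below all others, whereas SAHA overlapped the lowest control library. Dnmt1 fell by 0.36 ± 0.05 on the log2 scale in Smarcb1-RE (adjusted p = 2.54e-05) and by 0.14 ± 0.05 in SAHA (adjusted p = 0.0215). The call in SAHA was lost without control replicate 2 (-0.11), control replicate 3 (-0.12), SAHA replicate 1 (-0.15) or SAHA replicate 2 (-0.14), with adjusted p between 0.0525 and 0.0966. It was also lost with at least 10 counts in every library (-0.11, adjusted p = 0.0612) and in a separate fit to the pair of groups (-0.14, adjusted p = 0.063). With library totals in place of TMM factors, the fall in Smarcb1-RE was by 0.20.

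Uhrf1 (chromosome 17, 56303321 to 56323486, plus strand) moved in the same direction as its partner. Control libraries held 307, 357 and 340 CPM, SAHA libraries 260, 243 and 244 CPM, and Smarcb1-RE libraries 198, 208 and 206 CPM. The 3 groups did not overlap and were ordered control, SAHA, Smarcb1-RE from high to low. The log2 fold change was -0.42 ± 0.05 in SAHA (adjusted p = 1.65e-05) and -0.71 ± 0.05 in Smarcb1-RE (adjusted p = 8.11e-08), which is a level 1.34-fold and 1.64-fold lower. Both calls held in every alternative run without a minimum fold change of 1 on the log2 scale.

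Dnmt1 and Uhrf1 are transcribed in S phase, and promoters of many S-phase genes bind E2F factors. The letters TTTCGCGC or TTTGGCGC, taken as an E2F motif, were searched on both strands in the 250 bases before each RefSeq start site (RefSeq, GRCm38.p6), which was available for 8 of the 9 members. Where a gene had several start sites, the window with the most CpG was used. A match was found in Dnmt1 and Uhrf1 and in no other member, and in 1.36% of the promoters of tested genes. These windows and motifs were chosen after the fold changes and a first search were seen. That first search used the most 5′ window of each gene and found a match in 0 of the 8 members, against 1.31% of promoters of tested genes; with any window allowed, the same 2 members matched, against 1.47%. Dnmt1 has 3 windows and Uhrf1 has 2, of which 1 each holds the match. In this Dnmt1 window, 166 of the 250 bases, the match among them, lie in annotated exons. The Uhrf1 window has 0 such bases, but like the Dnmt1 window it lies inside the annotated gene. The matches are shown with the motif in capitals, each read on the strand of the gene, at chr9:20952824-20952853 (minus strand) and chr17:56304117-56304146 (plus strand). In Dnmt1 the capitals are the reverse complement of TTTCGCGC.
Dnmt1: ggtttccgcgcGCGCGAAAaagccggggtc
Uhrf1: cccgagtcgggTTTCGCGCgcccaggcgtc

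A match describes the letters only. The other motifs searched in the same windows were the NRF1 palindrome, found in 0 of the 8 members and 1.81% of promoters of tested genes, CCAAT (NF-Y), found in 4 members (Dnmt1, Tdg, Tet3 and Uhrf1) and 36.6%, and GGGCGG (Sp1), found in 7 members, all but Tdg, and 60.9%. In the replication list described below, 2 of 15 genes with a window matched (Mcm5 and Mcm6).

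Dnmt3a (chromosome 12, 3806007 to 3914443, plus strand), a de novo methyltransferase, was higher in both treatments. It was measured at 8.76, 8.79 and 10.1 CPM in control, 15.1, 14.1 and 14.9 CPM in SAHA and 14.0, 16.4 and 14.3 CPM in Smarcb1-RE. Every treated library exceeded every control library, and the treated groups overlapped each other. Dnmt3a rose by 0.67 ± 0.09 in SAHA (adjusted p = 1.92e-05) and by 0.69 ± 0.09 in Smarcb1-RE (adjusted p = 9.68e-06) on the log2 scale, or 1.59-fold and 1.61-fold. Between the treatments the difference was 0.02 (95% confidence interval -0.16 to 0.20, adjusted p = 0.855), whose sign turned without SAHA replicate 2 (-0.03) or Smarcb1-RE replicate 2 (-0.06).

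Dnmt3b (chromosome 2, 153649450 to 153687730, plus strand), the other de novo enzyme, went the opposite way. Its levels were 14.3, 14.8 and 14.2 CPM in control, 10.6, 9.81 and 9.91 CPM in SAHA and 12.6, 13.5 and 12.6 CPM in Smarcb1-RE. SAHA was lowest, Smarcb1-RE lay between, and no groups overlapped. The log2 fold change was -0.52 ± 0.07 in SAHA (adjusted p = 2.42e-05) and -0.16 ± 0.07 in Smarcb1-RE (adjusted p = 0.0397). The second call was lost with library totals alone (-0.00), with DESeq2 (-0.17, adjusted p = 0.141), with at least 10 counts in every library (-0.11), and without control replicate 2 (-0.16), Smarcb1-RE replicate 1 (-0.16) or Smarcb1-RE replicate 3 (-0.15).

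Per length, Dnmt1 dominated the methyltransferase transcripts in all libraries. Of the summed level of the 3 Dnmt genes in CPM per kb of exon, Dnmt1 took 95.2% ± 0.284 in control, 95.6% ± 0.160 in SAHA and 93.9% ± 0.293 in Smarcb1-RE (SD, n = 3). Dnmt3a took 0.708% to 0.823%, 1.33% to 1.41% and 1.5% to 1.73% in the same order, and its share was higher in every treated library (exact permutation test, two-sided, p = 0.1, the smallest that 3 against 3 can give, and 0.11 after Benjamini-Hochberg adjustment over the 18 shares compared). The share of Dnmt3b was 3.77% to 4.28% in control, 2.97% to 3.22% in SAHA and 4.32% to 4.65% in Smarcb1-RE, so that its share in Smarcb1-RE was slightly above control (exact p = 0.1) while its CPM was below. Shares are taken within a library and do not depend on its scaling factor. The summed Dnmt level was 71.3 ± 5.03, 64.4 ± 0.933 and 56.6 ± 0.912 CPM per kb in control, SAHA and Smarcb1-RE.

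**Figure D2:**
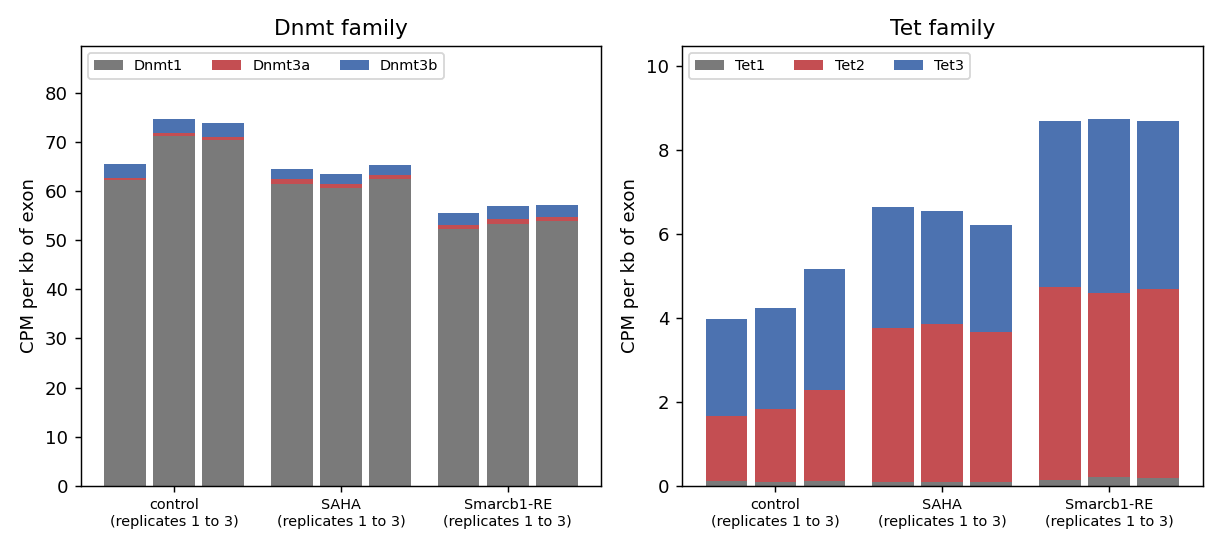
Summed CPM per kb of exon in each of the 9 libraries, stacked by gene, for the Dnmt family (left) and the Tet family (right), with the libraries of each group in replicate order. Dnmt1 fills most of each Dnmt bar, and the Tet bars grow from between 3.98 and 5.17 in control to between 8.70 and 8.73 in Smarcb1-RE through Tet2 and Tet3.

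Among the erasers, Tet2 (chromosome 3, 133463679 to 133545139, minus strand) had the largest change of any member in both comparisons with control. Tet2 measured 26.3, 29.1 and 36.6 CPM in control, 61.7, 63.4 and 60.3 CPM in SAHA and 77.7, 73.8 and 76.2 CPM in Smarcb1-RE. The 3 groups were fully separate, with control replicate 3 the highest of its group. Tet2 was 2.01-fold higher in SAHA (log2 fold change 1.01 ± 0.09, adjusted p = 6.43e-07) and 2.47-fold higher in Smarcb1-RE (1.31 ± 0.09, adjusted p = 2.35e-08). Both were called under all alternatives.

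The promoter window of Tet2 stood out in sequence. It held 51 CpG in 250 bases, more than 99.9% of the promoters of tested genes, whose median was 17. A near-identical stretch repeats along most of this window and holds most of its CpG, as the letters below show. The window also lies inside the annotated gene, whose 5′ end is at 133545139. So do the windows used for Dnmt1, Dnmt3a, Uhrf1, Tet1 and Tet3. The CpG of the other members with a window were as follows. Dnmt3a followed with 40, Uhrf1 with 30, Dnmt1 with 26, Dnmt3b with 21 and Tdg with 19. Tet3 (17) and Tet1 (15) were at or below that median. For the genes with several windows these are the richest ones, and the ranking depends on that choice: the most 5′ windows held 38 CpG in Dnmt3a, 10 in Uhrf1 and 2 in Dnmt1, and the poorest window of Dnmt3a held 15. The windows of Tet2 (chr3:133544391-133544640, minus strand) and Uhrf1 (chr17:56304063-56304312, plus strand), a member that rose and a member that fell, are shown 5′ to 3′ with each CpG in capitals.
Tet2: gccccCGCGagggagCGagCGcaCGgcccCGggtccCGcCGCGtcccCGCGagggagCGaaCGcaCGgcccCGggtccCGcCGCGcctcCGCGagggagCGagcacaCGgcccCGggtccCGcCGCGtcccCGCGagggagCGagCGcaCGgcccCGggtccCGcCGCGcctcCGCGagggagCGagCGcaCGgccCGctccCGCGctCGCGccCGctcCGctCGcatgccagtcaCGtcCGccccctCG
Uhrf1: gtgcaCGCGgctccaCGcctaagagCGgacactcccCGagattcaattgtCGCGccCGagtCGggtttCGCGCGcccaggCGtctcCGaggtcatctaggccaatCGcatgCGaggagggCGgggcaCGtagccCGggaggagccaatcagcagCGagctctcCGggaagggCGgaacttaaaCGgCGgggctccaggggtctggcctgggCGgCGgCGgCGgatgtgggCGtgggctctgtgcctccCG

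Tet3 (chromosome 6, 83362373 to 83459084, minus strand) rose in Smarcb1-RE and was not called in SAHA. Its libraries gave 38.5, 40.4 and 48.1 CPM in control, 48.1, 44.9 and 42.7 CPM in SAHA and 66.1, 69.1 and 66.8 CPM in Smarcb1-RE. Control and SAHA overlapped, whereas all Smarcb1-RE libraries were higher than both. The log2 fold change was 0.67 ± 0.07 in Smarcb1-RE (adjusted p = 2.33e-06) and 0.09 in SAHA (95% confidence interval -0.07 to 0.26, adjusted p = 0.28), and Smarcb1-RE exceeded SAHA by 0.57 ± 0.07 (adjusted p = 1.04e-05). Without control replicate 3, the difference in SAHA was 0.20 and was called (adjusted p = 0.0127).

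Tet1 (chromosome 10, 62804570 to 62908996, minus strand) was the least expressed member, with 31 to 76 counts per library. It stood at 1.7, 1.56 and 1.85 CPM in control, 1.47, 1.5 and 1.34 CPM in SAHA and 2.01, 3.36 and 2.72 CPM in Smarcb1-RE. All SAHA libraries were below control and all Smarcb1-RE libraries above, but the spread within Smarcb1-RE was wide. Tet1 rose by 0.66 ± 0.21 in Smarcb1-RE (adjusted p = 0.0132) and its log2 fold change in SAHA was -0.25 (95% confidence interval -0.74 to 0.24, adjusted p = 0.352). Without Smarcb1-RE replicate 2 the value in Smarcb1-RE was 0.46 and was not called (adjusted p = 0.0819).

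The leading Tet transcript changed in both treatments. Per length, Tet3 made up 55.7% to 58.0% of the summed Tet level in control and Tet2 39.2% to 42.0%. In SAHA, Tet2 made up 55.1% to 57.5% and Tet3 41.1% to 43.4%, and in Smarcb1-RE Tet2 made up 50.1% to 53.0% and Tet3 45.5% to 47.4%. Each of these shares differed from control without overlap (exact permutation test, two-sided, p = 0.1, the smallest possible). The mean share of Tet2 was 56.7% in SAHA and 51.7% in Smarcb1-RE, with no overlap either. The summed Tet level was 4.47 ± 0.626, 6.46 ± 0.219 and 8.71 ± 0.0216 CPM per kb in control, SAHA and Smarcb1-RE (SD, n = 3).

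Tdg (chromosome 10, 82629828 to 82650799, plus strand), the glycosylase that acts after Tet oxidation, fell in both treatments. Control libraries had 50.2, 44.9 and 46.8 CPM, SAHA libraries 27.2, 26.3 and 25.9 CPM and Smarcb1-RE libraries 30.5, 31.6 and 28.5 CPM. SAHA was lowest and no groups overlapped. Tdg fell by 0.84 ± 0.06 in SAHA (adjusted p = 6.21e-08), the largest decrease of any member there, and by 0.65 ± 0.06 in Smarcb1-RE (adjusted p = 2.5e-07) on the log2 scale. Tdg shares 98.7% of 2968 bases with the processed pseudogene Tdg-ps, which had 124 to 281 counts per library, so the division of reads between them is uncertain. With both summed, a check added after the data were seen, the log2 fold changes were -0.78 and -0.63. Between the treatments Tdg was higher in Smarcb1-RE by 0.19 ± 0.06 (adjusted p = 0.00987), and this call was lost without Smarcb1-RE replicate 2 (0.16, adjusted p = 0.0512).

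The reader Mbd1, which binds methylated CpG, changed little. Mbd1 was at 60.0, 63.0 and 65.3 CPM in control, 65.2, 67.1 and 66.6 CPM in SAHA and 67.7, 71.6 and 71.4 CPM in Smarcb1-RE. Control and SAHA overlapped by a narrow margin, and all Smarcb1-RE libraries were higher than both. Mbd1 rose by 0.16 ± 0.04 in Smarcb1-RE (adjusted p = 0.00479), and its log2 fold change in SAHA was 0.08 (95% confidence interval -0.02 to 0.18, adjusted p = 0.134). With library totals alone the rise in Smarcb1-RE was 0.32, and with at least 10 counts in every library the value in SAHA was 0.11 and was called (adjusted p = 0.0385).

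**Figure D3:**
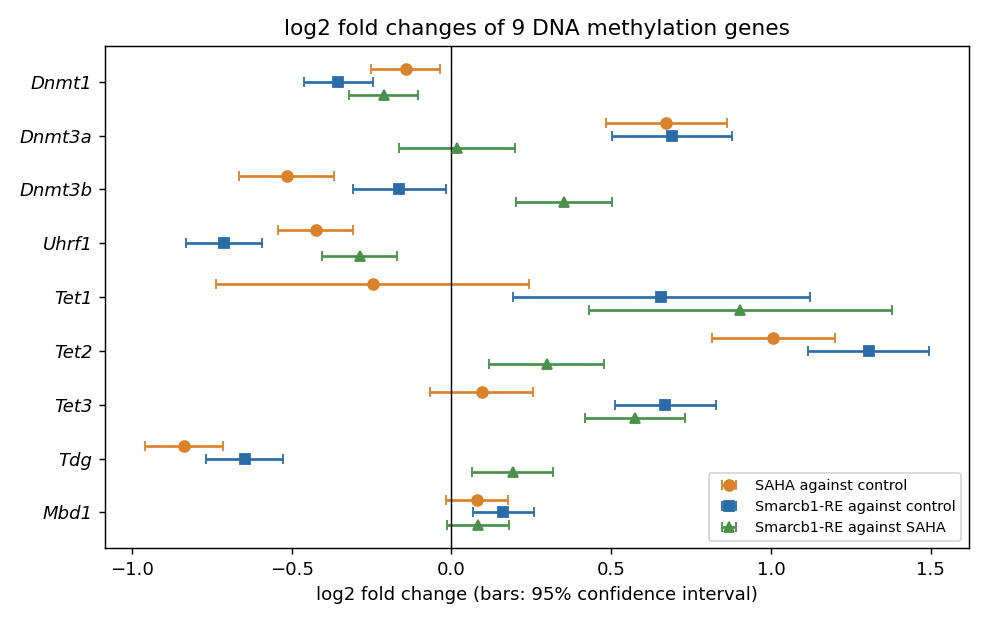
log2 fold change of each member in the 3 comparisons (edgeR), with bars for the 95% confidence interval. Tet2 lies farthest to the right in both comparisons with control (1.01 and 1.31), Tdg farthest to the left in SAHA (-0.84) and Uhrf1 in Smarcb1-RE (-0.71).

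Smarcb1-RE and SAHA were compared with each other to ask where the treatments differed. Of the members, 5 were higher in Smarcb1-RE (Dnmt3b, Tet1, Tet2, Tet3 and Tdg), 2 were lower (Dnmt1 and Uhrf1) and 2 were not called (Dnmt3a and Mbd1), where 74.6% of all genes were called, 37.7% up and 36.8% down. The libraries of 8 members did not overlap (80.0% of all genes). The largest differences were those of Tet1 (0.90 ± 0.22, adjusted p = 0.00225) and Tet3, and Tet1 alone passed 1.5-fold (39.3% of all genes passed, 21.4% up and 17.9% down). Dnmt3b was higher by 0.35 ± 0.07 (adjusted p = 0.000504) and Tet2 by 0.30 ± 0.08 (adjusted p = 0.00552). Dnmt1 and Uhrf1 were lower in Smarcb1-RE by log2 values of -0.21 ± 0.05 (adjusted p = 0.00185) and -0.29 ± 0.05 (adjusted p = 0.00037). With library totals alone, which shifted the median of all genes in this comparison from 0.02 to 0.18, both of these lost their call (-0.05 and -0.13) and Mbd1 gained one (0.24).

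In order of level per kb of exon, control cells expressed Uhrf1 (78.5 CPM per kb), Dnmt1 (68.0), Mbd1 (9.36), Tdg (8.80), Dnmt3b (2.83), Tet3 (2.54), Tet2 (1.82), Dnmt3a (0.554) and Tet1 (0.11). Mbd1 and Tdg overlapped between libraries, as did Dnmt3b and Tet3, and the other neighbours did not. With the longest transcript as the length, Tet3 stood above Dnmt3b. In both treatments Dnmt1 exceeded Uhrf1 on average, with overlapping libraries in SAHA, and Tet2 moved past Tet3 and Dnmt3b.

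Genes whose level over the 9 libraries, centred on control, was nearest to that of a member were sought among 11318 candidates by root-mean-square log2 difference. For Dnmt1 these were Mob1a (0.0294), Dnajc5 (0.0297) and Gak (0.0324), and for Uhrf1 Pcid2 (0.0289), Pdcd11 (0.0376) and Tnrc18 (0.0385). For Dnmt3a they were Dennd4a (0.0783), Alms1 (0.0828) and Pou3f3 (0.0878), and for Tet2 Olfr1033 (0.0787), Fras1 (0.0939) and Sidt2 (0.121).

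The partners of the writers were examined next. Of 6 tested genes, 0 rose and 3 fell in SAHA, and 1 rose and 3 fell in Smarcb1-RE, with median log2 fold changes of -0.05 and -0.21. Over all genes, 32.6% rose and 34.3% fell in SAHA, and 39.2% rose and 38.6% fell in Smarcb1-RE. Hells, a chromatin remodeler needed for normal methylation, and its partner Cdca7 fell in both treatments. Cdca7 had 146 ± 2.74 CPM (SD, n = 3, as for the CPM values that follow) in control, 78.2 ± 6.95 in SAHA (log2 fold change -0.90, adjusted p = 4e-08) and 81.9 ± 3.22 in Smarcb1-RE (-0.83, adjusted p = 2.97e-08). Hells had log2 fold changes of -0.53 and -0.75 (adjusted p = 2.31e-06 and 4.78e-08). Trdmt1, which methylates tRNA, rose by 0.49 in Smarcb1-RE (adjusted p = 0.00118) and had a log2 fold change of 0.00 in SAHA (adjusted p = 0.982).

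Replication genes, expressed with Dnmt1 and Uhrf1 in S phase, fell in both treatments. Of 18 genes, 0 rose and 16 fell in SAHA (median -0.50), and 0 rose and 15 fell in Smarcb1-RE (median -0.64), against all-gene shares called down of 34.3% and 38.6%. Their summed level was 6240 to 6446 CPM in control, 4906 to 5130 in SAHA and 3992 to 4023 in Smarcb1-RE. Mcm5, a subunit of the replicative helicase, fell by 0.77 and by 1.36 (adjusted p = 1.74e-08 and 5.58e-11). Tyms, which makes thymidylate, fell by 0.99 in SAHA (adjusted p = 5.94e-09), and Rrm1, of ribonucleotide reductase, by 1.2 in Smarcb1-RE (adjusted p = 7.21e-11). The part of this difference in the lower Dnmt1 and Uhrf1 levels was not tested.

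Among 8 other genes of reader families, 3 rose and 4 fell in SAHA, and 4 rose and 2 fell in Smarcb1-RE, with medians of 0.00 and 0.15. Over all genes, 66.9% were called in SAHA (32.6% up, 34.3% down) and 77.8% in Smarcb1-RE (39.2% up, 38.6% down). Control cells had 131 ± 7.10 CPM of Mbd3, a subunit of the NuRD complex, which fell to 71.6 ± 3.33 with SAHA and to 70.8 ± 1.03 with Smarcb1-RE (log2 fold changes -0.87 and -0.89, adjusted p = 1.61e-08 and 4.22e-09). Zbtb4, a zinc finger reader, rose by 0.61 and 1.13 (adjusted p = 2.22e-05 and 3.16e-08). Zbtb33 (Kaiso) rose by 0.51 in SAHA and fell by 0.47 in Smarcb1-RE (adjusted p = 1.79e-06 and 3.42e-06). Zbtb38 fell by 0.38 in SAHA (adjusted p = 2.79e-06) and rose by 0.28 in Smarcb1-RE (adjusted p = 2.07e-05).

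Of 18 tested genes of demethylation and base excision repair, 7 rose and 8 fell in SAHA, and 8 rose and 9 fell in Smarcb1-RE, with medians of -0.02 and -0.08. The shares over all genes were 32.6% up and 34.3% down in SAHA and 39.2% up and 38.6% down in Smarcb1-RE. The glycosylase genes Neil2 and Smug1 rose in Smarcb1-RE, from 3.65 ± 0.852 to 18.2 ± 0.460 CPM and from 35.2 ± 2.20 to 111 ± 5.66 CPM (log2 fold changes 2.32 and 1.66, adjusted p = 1.33e-08 and 8.86e-11). Parp1, which senses strand breaks, and Apex1, the endonuclease that follows the glycosylases, fell there, with log2 fold changes of -1.11 and -1.07 (adjusted p = 1.87e-10 and 7.41e-09). Gadd45a rose in both treatments, by 1.25 in SAHA and 1.33 in Smarcb1-RE (adjusted p = 0.000121 and 4.98e-05). Idh1, whose enzyme makes the 2-oxoglutarate that Tet enzymes use, rose by 1.16 in SAHA (adjusted p = 6.9e-09) and fell by 0.20 in Smarcb1-RE (adjusted p = 0.0122). The ligase gene Lig3 had log2 fold changes of -0.91 and -0.35 (adjusted p = 4.1e-07 and 0.000754). The glycosylase gene Neil3 fell by 0.62 in SAHA (adjusted p = 2.12e-06) and rose by 0.98 in Smarcb1-RE (adjusted p = 6.2e-09).

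The supply of the methyl donor S-adenosylmethionine was represented by 10 genes, of which 2 rose and 7 fell in SAHA (median -0.48) and 4 rose and 6 fell in Smarcb1-RE (median -0.26), against all-gene shares of 32.6% up and 34.3% down in SAHA and 39.2% up and 38.6% down in Smarcb1-RE. Mthfd2 and Mtr, of the folate and methionine cycles, fell by 1.18 and 1.08 in SAHA (adjusted p = 9.69e-09 and 2.75e-08). In Smarcb1-RE, Mthfd2 rose by 0.18 (adjusted p = 0.0136) and Mtr fell by 0.34 (adjusted p = 0.000258). Mthfd1, also of the folate cycle, fell by 1.75 and Ahcy, which clears S-adenosylhomocysteine, by 1.12 in Smarcb1-RE (adjusted p = 2.52e-12 and 1.06e-09). Mat2b, a subunit of S-adenosylmethionine synthetase, rose by 0.91 in SAHA and 0.35 in Smarcb1-RE (adjusted p = 7.61e-09 and 1.65e-05), and the catalytic Mat2a rose by 0.09 in SAHA (adjusted p = 0.0458) and fell by 0.46 in Smarcb1-RE (adjusted p = 9.66e-08).

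**Figure D4:**
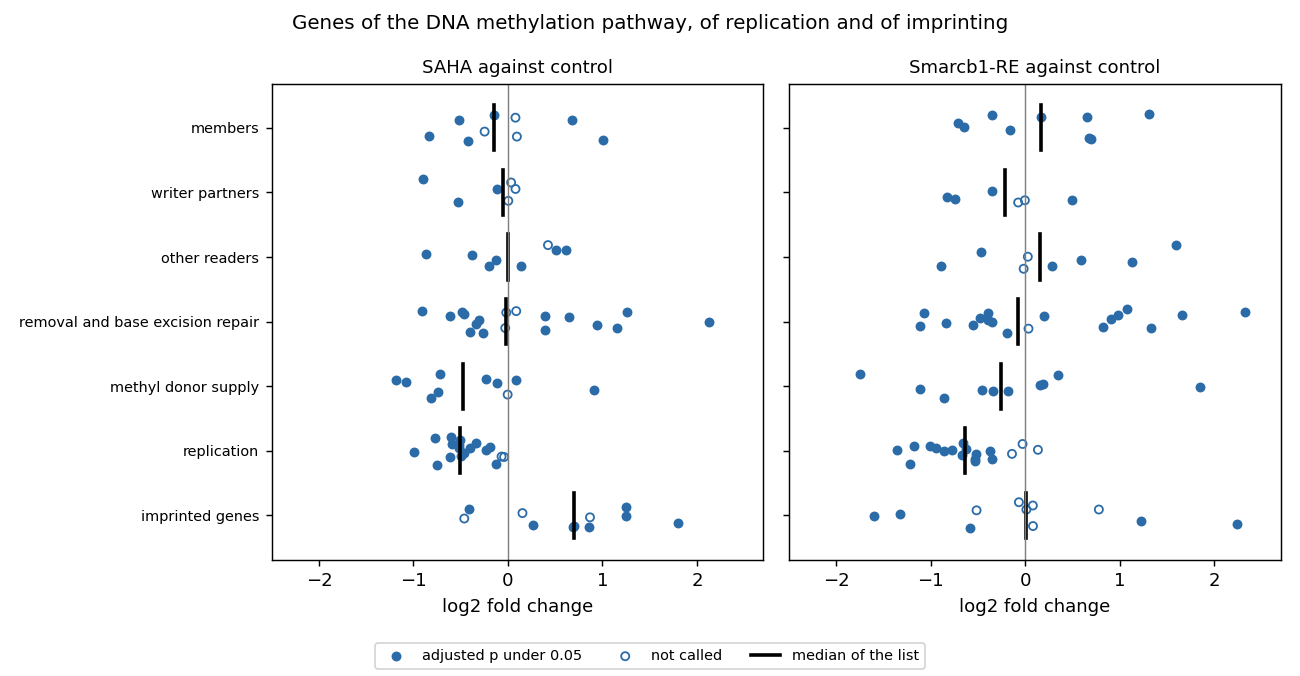
log2 fold changes against control of the members and of 6 other lists in SAHA (left) and Smarcb1-RE (right), with 1 point per tested gene, filled where called, and a black line at each list's median; vertical scatter within a list has no meaning. The replication list lies almost wholly to the left of 0, with medians of -0.50 and -0.64.

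Genes that methylation is known to silence in somatic cells were mostly not expressed. Of 20 germline genes, 3 were tested, and 17, 16 and 18 of the 20 had at most 3 counts in every library of control, SAHA and Smarcb1-RE. Dazl (0.141 CPM in control, 1.36 in SAHA and 0.0718 in Smarcb1-RE) passed the filter on low counts through the SAHA libraries, where it was high. Ddx4 (0.349, 1.27 and 0.997 CPM) passed through the libraries of both treatments, where it was high. The changes of Dazl and Ddx4 are therefore not read as results. Brdt, a testis bromodomain gene, rose by 0.73 and 1.09 (adjusted p = 0.000215 and 3.42e-06). Of 11 tested imprinted genes, 7 rose and 1 fell in SAHA (median 0.70), and 2 rose and 3 fell in Smarcb1-RE (median 0.01), where 32.6% of all genes rose and 34.3% fell in SAHA and 39.2% rose and 38.6% fell in Smarcb1-RE. Peg3, at 49.9 ± 3.44 CPM in control, rose to 173 ± 1.77 with SAHA and to 117 ± 2.09 with Smarcb1-RE (log2 fold changes 1.80 and 1.23, adjusted p = 1.2e-10 and 2.23e-10), and the cell cycle inhibitor gene Cdkn1c rose by 1.25 and 2.24 (adjusted p = 5.04e-06 and 7.41e-09). Peg10 and Gnas rose by 0.26 and 0.70 in SAHA (adjusted p = 0.0034 and 3.54e-08) and fell by 1.33 and 0.59 in Smarcb1-RE (adjusted p = 3.28e-09 and 6.39e-08). Sgce fell by 0.41 in SAHA (adjusted p = 1.05e-05) and had a log2 fold change of 0.01 in Smarcb1-RE (adjusted p = 0.836). Whether the methylation of any of these genes differed was not measured.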

How the data were processed

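RNA-seq was performed on 9 libraries of the murine T15 line, read from a single end after strand-specific library preparation. The authors deposited estimated counts per Ensembl gene, neither normalized nor pooled. The submitters' processing notes name FastQC 0.11.8, MultiQC 1.7, Salmon 0.14.1, DESeq2 1.22.2 and GRCm38. Reads shared by similar genes are divided by estimation, and isoforms cannot be told apart at gene level. Gene identifiers were matched to GENCODE M21 (99.5% of 35288 genes).

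Counts were rounded and analysed in R 4.3.3 with edgeR 4.0.16 (TMM, filterByExpr at 10 counts, then glmQLFit and glmQLFTest on all 3 groups at once, Benjamini-Hochberg adjustment). SE is the absolute log2 fold change over the square root of F. A floor of 3 counts was 0.123 to 0.133 CPM, which covers counting error only. CPM per kb used the union of exons. Tdg-ps was aligned to Tdg with blastn 2.17.0. The calculations were tested on simulated data in which far fewer genes changed than were called here. TMM scaling under changes this broad was therefore not tested.

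The members and gene lists were chosen with earlier results of these data known. Named genes are all members, Smarcb1 and, per list and comparison with control, the called genes whose average log2 CPM was 1 or more that had the 2 largest increases and the 2 largest decreases, and, for Dnmt1, Dnmt3a, Tet2 and Uhrf1, the 3 nearest genes. Motif-matched and marker genes were named in addition, and some genes that the rule names are not reported here. Alternatives were DESeq2 1.42.0, median-ratio factors, library totals, 2 other filters, separate fits, a replicate block, stricter thresholds, the longest transcript as length and leaving out each library. Same-numbered libraries did not deviate together (r between -0.12 and 0.12).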

Additional observations from a re-analysis of the deposited data

How the results depend on the processing

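Across the members' log2 fold changes, 467 values kept their direction and side of the threshold, 40 lost the call, 4 gained it and 2 changed sign (Dnmt3a between the treatments, -0.03 without SAHA replicate 2, and between -0.059 and 0.052 when any Smarcb1-RE library was left out). This tally pools new fits with stricter thresholds, which reuse the main fit and can lose calls but not gain them. It also includes the run with Tdg and Tdg-ps summed, which could move little but Tdg. With an absolute log2 fold change of at least 1 required, 1 member rose and 0 fell in SAHA, 1 rose and 0 fell in Smarcb1-RE, and 0 rose and 0 fell between the treatments. The share of all genes at that threshold was not calculated, so these counts cannot be set against a background. With library totals alone, 0 members were lower in Smarcb1-RE than in SAHA, where 10365 of 13697 genes were called, 6441 of them up. The median of all genes against control then moved from 0.01 to 0.17 in Smarcb1-RE. With the longest transcript as length, the difference in share was 0.807 percentage points for Dnmt3a and -0.718 for Tet1 in SAHA and 1.09 for Dnmt3a in Smarcb1-RE. Leaving out 1 library gave 2 to 3 members up and 3 to 4 down in SAHA, 4 to 5 up and 3 to 4 down in Smarcb1-RE, and 4 to 5 up between the treatments. Those runs tested 13968 to 14042 genes. Of all genes, 8379 to 9443 were called in SAHA, 10216 to 10862 in Smarcb1-RE and 9703 to 10758 between the treatments. The replicate numbers only name the libraries. With the replicate block, Dnmt3b in Smarcb1-RE was not called (-0.16, edgeR adjusted p = 0.0577), and no other member's call changed. The cause of these changes was not tested.

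With 3 libraries a group, exact tests of single values cannot reach p = 0.05. Tet1 rests on few counts, with 31 to 76 a library.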
